A study of Mus musculus with 2 samples.

Results

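The nuclear genes of the mitochondrial respiratory chain and ATP synthase were examined in bone marrow-derived macrophages (BMDM) of SIRPα-KO and wild-type (WT) C57BL/6 mice. Members were the genes whose symbol begins with Ndufa, Ndufb, Ndufc, Ndufs, Ndufv, Uqcr, Cox4, Cox5, Cox6, Cox7, Cox8 or Atp5, together with Sdha, Sdhb, Sdhc and Sdhd. The symbols matched 89 of the 16263 genes listed in both expression tables. Of these, 80 encode subunits of complexes I to V or their paralogues, 7 are the complex I assembly factors Ndufaf1 to Ndufaf7, and Atp5s and Atp5sl match by symbol but encode no subunit of the enzyme. Complex I had 36 members, complex II had 4, complex III had 8, complex IV had 17 and complex V had 15. Ndufa4 and its paralogue Ndufa4l2 were placed with complex IV, where Ndufa4 protein is known to reside.

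The SIRPα-KO library came from mice labelled SIRPalpha-/- and the WT library from mice labelled wild type, and the labels do not describe the targeted allele. Marrow cells of both genotypes were cultured for 5 days with M-CSF, the growth factor of the macrophage lineage. Both then received interferon-γ at 20 ng/ml and LPS at 100 ng/ml for 6 h, a treatment that gives inflammatory (M1) macrophages, together with an agent called mCD47.ex in the labels. Cells of 5 mice were mixed per genotype, so each genotype was 1 library. No replicate error can be estimated, no test was made, and every difference below is a difference between these 2 libraries.

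Complexes I, III and IV of the inner mitochondrial membrane pass electrons to oxygen and pump protons, complex II feeds in electrons from succinate, and complex V (ATP synthase) uses the proton gradient to make ATP. Each complex other than complex II joins nuclear subunits to subunits encoded by mitochondrial DNA. Macrophages activated with LPS and interferon-γ are known for a shift of energy metabolism towards glycolysis. Of the mitochondrially encoded subunits 0 were found by symbol among the listed genes, so they could not be analysed here.

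Values are FPKM, fragments counted per kilobase of a transcript and per unit of library size. The unit divides by transcript length, so levels of different genes can be compared. Genes with at least 1 FPKM in at least 1 library were kept, which left 84 members of 10092 genes. The log2 ratio is log2(SIRPα-KO + 1) minus log2(WT + 1), which understates differences of low genes, and a gene was called higher or lower where this ratio reached 2-fold. The members that were not kept were Atp5s (0.30 FPKM in SIRPα-KO and 0.12 FPKM in WT), Cox4i2 (0.13 and listed at 0), Ndufa4l2 (0.28 in both), Ndufaf6 (0.76 and 0.50) and Ndufaf7 (0.74 in both). Depth was estimated at about 10950000 reads in SIRPα-KO and 11100000 reads in WT from the steps between low values.

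Several features of the libraries differed beside the results below. Sirpa, the targeted gene, was at 71.47 FPKM in the library labelled SIRPα-KO and 153.87 FPKM in WT, so the transcript was lower but still present. Xist, known from female cells, had 0.91 FPKM in SIRPα-KO and 47.54 FPKM in WT, and the Y-linked Ddx3y was at 11.56 FPKM in SIRPα-KO and listed at 0 in WT. The sex of the mice and the genotype therefore cannot be told apart. Malat1, a nuclear RNA, was at 32.93 FPKM in SIRPα-KO and 83.70 FPKM in WT, and the ribosomal precursor Rn45s was at 2.83 and 5.10 FPKM. The 9 listed macrophage markers summed to 10376 FPKM in SIRPα-KO and 10595 FPKM in WT, of which Lyz2 gave 7207.7 and 7106.27 FPKM. Of the 9, 4 had a ratio above 0 and 5 below 0, and 1, Csf1r, was called lower. At 1.5-fold 2 were lower, Csf1r and Cd14 (163.84 FPKM in SIRPα-KO and 290.19 FPKM in WT), and 0 were higher. The 9 listed neutrophil and precursor markers summed to 276 FPKM in SIRPα-KO and 528 FPKM in WT, 5 of 8 kept were called lower, and Retnlg was listed at 0 in SIRPα-KO. The sum of 4 listed erythroid and megakaryocyte markers was 154 FPKM in SIRPα-KO and 41.8 FPKM in WT, of which Pf4 gave 147.69 and 37.26 FPKM. Dendritic cell markers summed to 43.0 FPKM in SIRPα-KO and 42.0 FPKM in WT, but the 2 of 4 kept that were called went opposite ways. Ccr7 was called higher, at 23.81 FPKM in SIRPα-KO and 6.93 FPKM in WT, and Itgax was called lower, at 12.08 and 27.73 FPKM. B cell markers summed to 2.47 FPKM in SIRPα-KO and 5.91 FPKM in WT, and T and NK cell markers to 7.04 and 6.32 FPKM with Cd3g at 0 in both. Mast cell markers summed to 5.88 FPKM in SIRPα-KO and 3.21 FPKM in WT, and stromal and endothelial markers to 11.99 and 13.04 FPKM. The 4 listed muscle markers summed to 0.21 FPKM in SIRPα-KO and 0.20 FPKM in WT. In RNA from mixed cells, fewer cells of a type and less RNA per cell cannot be told apart, and the part of these features in the results below was not tested.

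The respiratory chain and ATP synthase genes were nearly alike in the 2 libraries, with Ndufs4 as the exception. Among the 84 kept members 1 was called higher, Ndufs4, against 3.43% of all kept genes, and 0 were called lower, against 4.3% of all kept genes. At a limit of 1.5-fold, Ndufs4 and Cox5a were higher and Cox6b2 was lower, beside 10.9% of all kept genes higher and 10.2% lower. Thus 96.4% of the kept members lay within 1.5-fold, compared with 78.8% of all kept genes. This was not particular to the members: 89 of 92 kept genes with cytosolic ribosome symbols and 72 of 76 mitochondrial ribosome genes also lay within it. The counts were 28 of 31 for assembly factors outside the symbol rule, 17 of 22 for mitochondrial import genes and 11 of 14 for biogenesis regulators. The members are abundant, so the same count was made among genes with a mean of at least 10 FPKM. There 97.3% of 73 members and 79.0% of 4301 genes lay within 1.5-fold, with 2 members and 10.7% of genes higher and 0 members and 10.3% of genes lower. Ndufc2, at 18.55 FPKM in SIRPα-KO and 28.32 FPKM in WT, lay just within the lower 1.5-fold limit, with a log2 ratio of -0.5847. After scaling by median of ratios or trimmed mean, Ndufc2 was past that limit at -0.65, and Cox5a was within 1.5-fold at 0.52.

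The median log2 ratio of the members was 0.11, against 0.06 for all kept genes, and the interquartile range was 0.33 for the members and 0.55 for all kept genes. Of the 84 members 54 had a ratio above 0, or 64.3%, beside 56.1% of all kept genes. Summed over all 89 members, the level was 3884 FPKM in SIRPα-KO and 3497 FPKM in WT, a ratio of 1.11. Scaling the libraries by the median of ratios or by a trimmed mean lowered the SIRPα-KO values by 0.07 on the log2 scale, which moved the ratios of low members by less because of the pseudocount, and the median of the members was then 0.04.

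**Figure D1:**
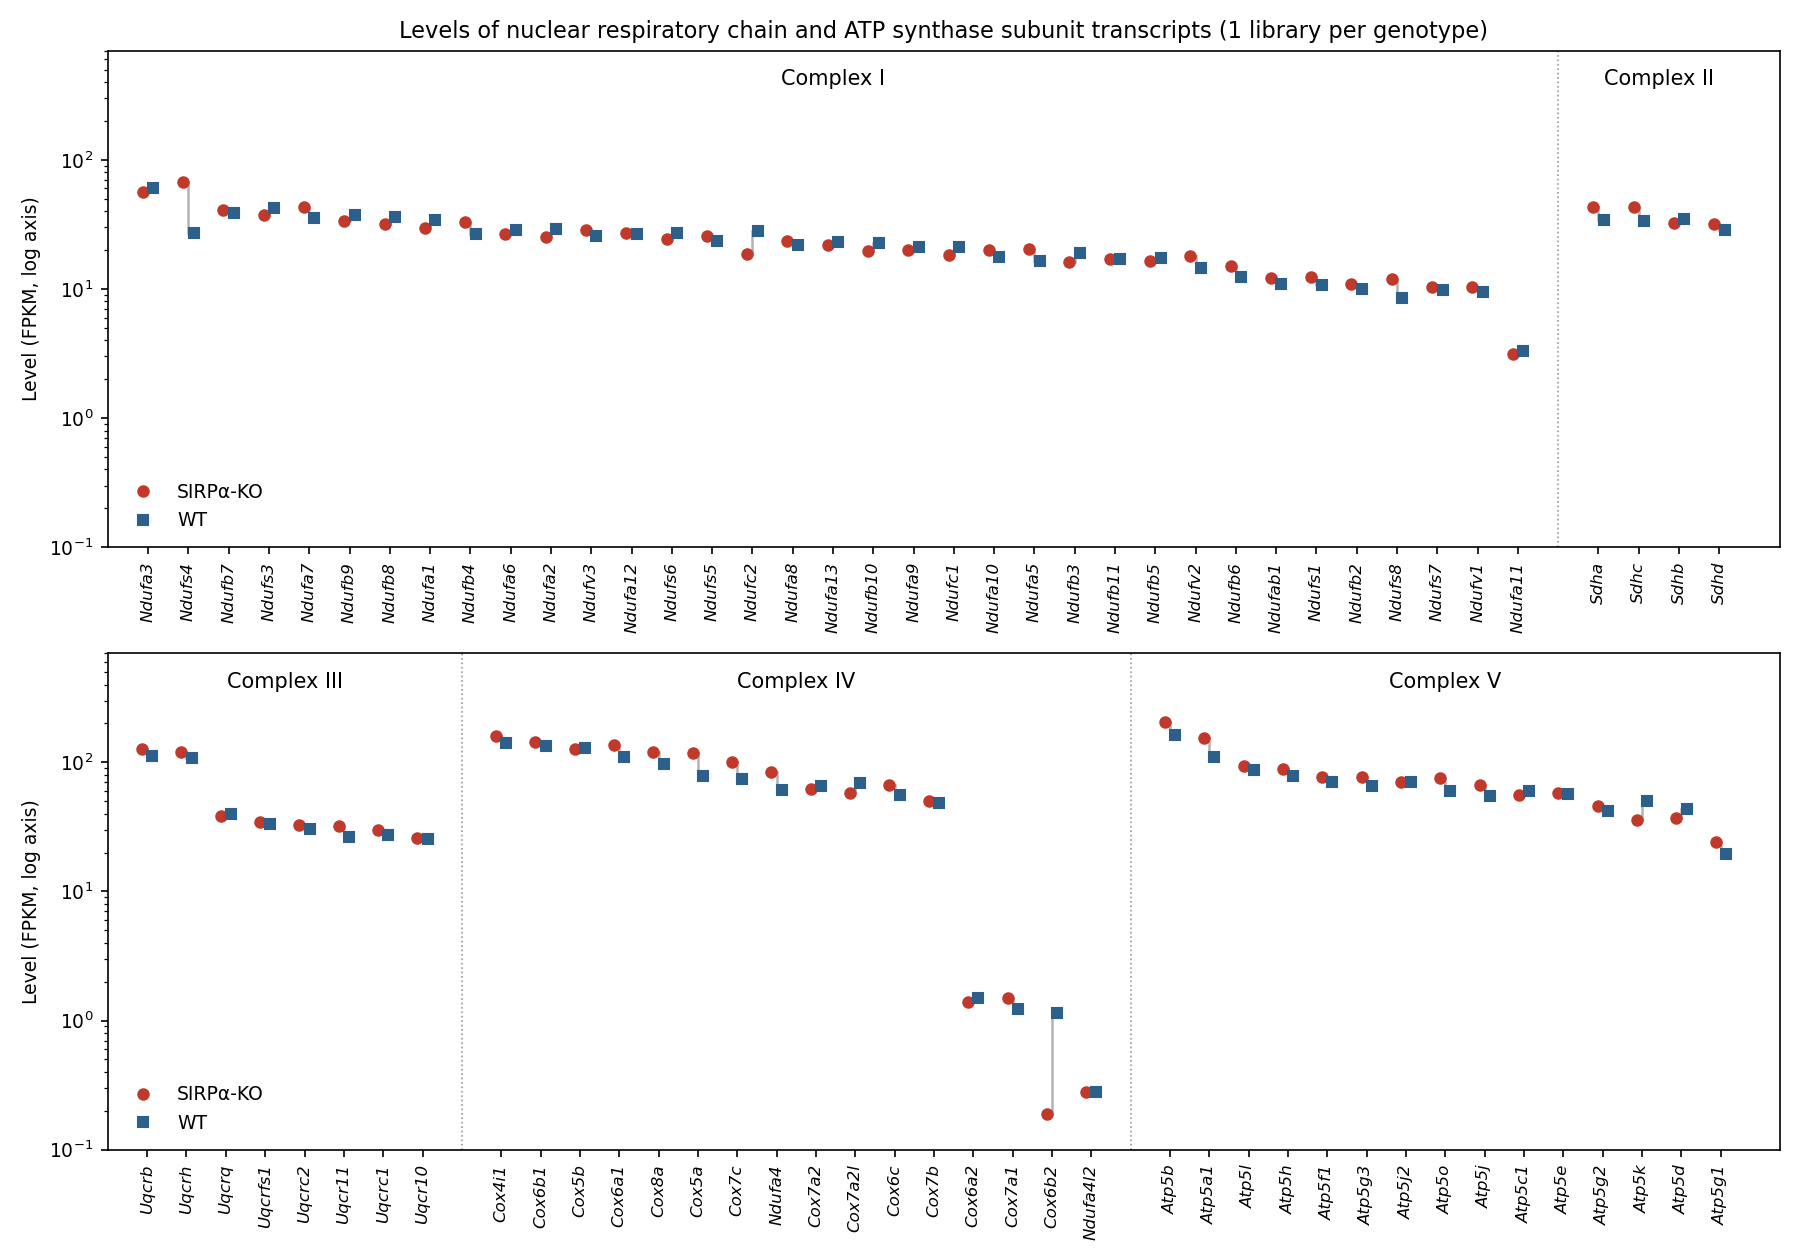
Level (FPKM, log axis) of subunit genes in the SIRPα-KO library (red circles) and the WT library (blue squares), by complex and ordered by mean level; 1 complex I member is not shown, and Cox4i2 is left out because it is listed at 0 in WT. The pairs of points lie close together for most genes, and those of Ndufs4 (67.25 FPKM in SIRPα-KO and 27.16 FPKM in WT) and of the scarce Cox6b2 lie apart.

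Ndufs4 encodes an accessory subunit near the electron entry of complex I and is mutated in human Leigh syndrome. It was at 67.25 FPKM in SIRPα-KO and 27.16 FPKM in WT, a 2.48-fold difference with a log2 ratio of 1.28. In SIRPα-KO it was the most abundant complex I subunit, ahead of Ndufa3, whereas in WT several core and accessory subunits were more abundant. About 1250 reads in SIRPα-KO and 512 reads in WT lie behind these values, and the 95% interval of the fold from counting error alone was 2.23 to 2.75. None of its 50-base words occurs in another annotated gene. Its neighbours on chromosome 13 did not share 1 direction. Fst, next to Ndufs4, encodes the activin inhibitor follistatin and was also higher, at 22.71 FPKM in SIRPα-KO and 6.18 FPKM in WT. The fold of Fst was 3.67, with a 95% counting interval of 2.86 to 4.83. Further away, Mocs2, for molybdenum cofactor synthesis, was at 27.87 and 32.50 FPKM, and Snx18, for endosomal sorting, was at 10.84 and 22.23 FPKM. A local effect was not tested. Arl15, the annotated gene on the other side of Ndufs4, was at 0.32 FPKM in SIRPα-KO and 0.24 FPKM in WT.

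Promoter sequences of 4 members are given to show the Ndufs4 start beside Cox5a, the other member higher by 1.5-fold, and beside Sdha and Atp5b, the marker genes of complexes II and V. They are RefSeq sequences of GRCm38.p6, from 250 bases before to 50 bases after the annotated start, written 5′ to 3′ on the strand of the gene. Capitals mark matches to motifs of NRF1 (GCGCA and GCGC with any 1 base, N, between them), GABP (CCGGAAG) and YY1 (AANATGGC), factors known from promoters of nuclear respiratory genes, read on both strands.
Ndufs4, chr13:114388045-114388344, minus strand: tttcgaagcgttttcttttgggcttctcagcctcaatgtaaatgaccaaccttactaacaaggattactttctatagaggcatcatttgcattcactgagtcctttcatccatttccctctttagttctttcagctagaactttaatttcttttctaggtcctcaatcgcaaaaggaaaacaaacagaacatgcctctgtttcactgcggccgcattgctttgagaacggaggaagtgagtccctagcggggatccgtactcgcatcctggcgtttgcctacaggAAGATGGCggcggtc
Cox5a, chr9:57520982-57521281, plus strand: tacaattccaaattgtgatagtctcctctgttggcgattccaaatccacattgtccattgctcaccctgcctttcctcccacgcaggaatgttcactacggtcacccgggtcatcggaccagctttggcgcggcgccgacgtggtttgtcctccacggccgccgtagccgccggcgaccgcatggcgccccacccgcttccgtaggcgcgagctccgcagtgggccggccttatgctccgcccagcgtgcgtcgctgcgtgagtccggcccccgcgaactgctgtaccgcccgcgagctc
Sdha, chr13:74350191-74350490, minus strand: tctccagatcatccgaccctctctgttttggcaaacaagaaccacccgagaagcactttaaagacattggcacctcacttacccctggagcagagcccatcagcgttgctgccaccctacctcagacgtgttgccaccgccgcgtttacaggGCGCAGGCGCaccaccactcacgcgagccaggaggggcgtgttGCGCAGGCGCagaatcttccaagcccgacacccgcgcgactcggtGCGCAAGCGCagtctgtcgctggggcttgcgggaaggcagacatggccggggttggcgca
Atp5b, chr10:128083057-128083356, plus strand: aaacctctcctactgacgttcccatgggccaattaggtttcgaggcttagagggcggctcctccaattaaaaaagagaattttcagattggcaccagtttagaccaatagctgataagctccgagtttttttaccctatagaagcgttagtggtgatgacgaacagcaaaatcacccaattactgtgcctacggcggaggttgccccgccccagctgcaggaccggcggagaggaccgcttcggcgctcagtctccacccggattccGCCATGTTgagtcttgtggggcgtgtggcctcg
The Ndufs4 and Atp5b windows each hold the YY1 letters, the Sdha window holds the NRF1 letters at 3 places, and none of the 3 motifs was found in the Cox5a window.

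Such windows were given for 74 member genes, with 80 windows in all because some genes have several starts. The NRF1 letters were in 20 member windows (25%), compared with 10.5% of 10215 windows of kept genes and 4.60% of all 32851 windows. The YY1 letters were also in 20 member windows (25%), compared with 9.15% of windows of kept genes and 6.05% of all windows. The GABP letters were in 17 member windows (21.25%), close to the 19.2% of windows of kept genes, with 8.86% of all windows. At least 1 of the motifs was in 50 member windows (62.5%), compared with 33.5% of windows of kept genes and 17.4% of all windows. The median log2 ratio was 0.14 for 19 kept members with the NRF1 letters and 0.07 for 53 without, and 0.15 for 17 with the GABP letters and 0.08 for 55 without. For the YY1 letters it was 0.00 for 19 kept members with them and 0.11 for 53 without. These differences were not tested, and a match describes letters, not binding.

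Complex I, the NADH dehydrogenase, was split around 0. Of its 36 subunits 19 had a ratio above 0 and 17 below 0, and the median log2 ratio was 0.03, which was -0.04 with either of the other scalings. The summed level was 884 FPKM in SIRPα-KO and 852 FPKM in WT. The small difference of the sums came with Ndufs4: without it the log2 ratio of the sums was -0.01, against 0.05 with it.

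The 7 core subunits of complex I, which carry the flavin and iron-sulfur clusters, had a median log2 ratio of 0.11, with 6 of 7 above 0. Ndufs8, an iron-sulfur subunit, was at 11.89 FPKM in SIRPα-KO and 8.51 FPKM in WT, the second-highest ratio of complex I at 0.44. Its 95% counting interval for the fold was wide, 1.06 to 1.84. Ndufs3 was the core subunit below 0, with 37.51 FPKM in SIRPα-KO and 42.02 FPKM in WT. Ndufv1, the flavin-binding subunit, was at 10.40 FPKM in SIRPα-KO and 9.55 FPKM in WT.

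The 19 accessory subunits of the membrane arm had a median log2 ratio of -0.07, with 12 of 19 below 0, and their sum was 451 FPKM in SIRPα-KO and 472 FPKM in WT. Ndufc2 had the lowest ratio of complex I, -0.58, with 18.55 FPKM in SIRPα-KO and 28.32 FPKM in WT. The 95% counting interval of its fold was 0.526 to 0.815, so the difference exceeded counting error while its replicate error is unknown. Ndufa1, an X-linked subunit needed for assembly, was next with 29.45 FPKM in SIRPα-KO and 34.40 FPKM in WT. The most abundant of the arm were Ndufa3 (55.93 FPKM in SIRPα-KO and 60.05 FPKM in WT) and Ndufb7 (41.07 and 39.02 FPKM). Ndufb4 had the highest ratio of the arm, with 32.98 FPKM in SIRPα-KO and 26.76 FPKM in WT. Ndufb11, also X-linked, was at 17.19 FPKM in SIRPα-KO and 17.21 FPKM in WT.

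The 10 accessory subunits of the peripheral arm, Ndufs4 among them, summed to 295 FPKM in SIRPα-KO and 248 FPKM in WT, with 6 of 10 above 0. After Ndufs4 the highest ratio was that of Ndufa5, with 20.32 FPKM in SIRPα-KO and 16.35 FPKM in WT. Ndufa7 was at 42.99 FPKM in SIRPα-KO and 35.46 FPKM in WT. Ndufs6 was at 24.25 FPKM in SIRPα-KO and 27.10 FPKM in WT, and Ndufa2 was lowest in ratio with 25.45 and 29.06 FPKM. Ndufs4 thus stood apart from the other 9, whose ratios lay between -0.18 and 0.30.

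**Figure D2:**
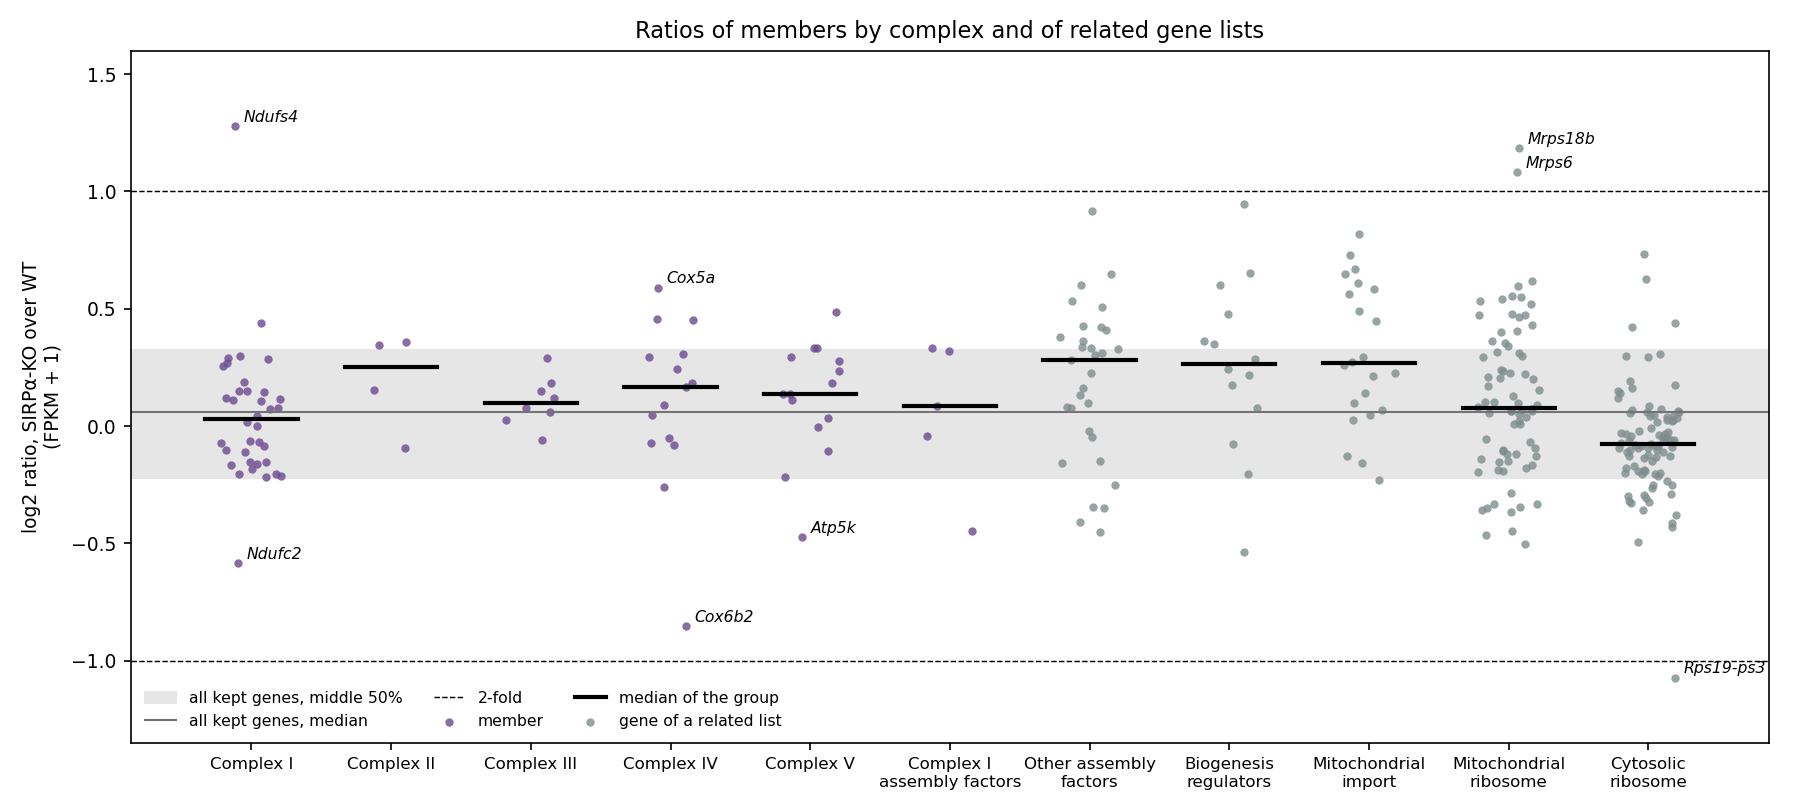
log2 ratio of SIRPα-KO over WT (FPKM + 1) for each kept member by complex and for genes of related lists; thick lines are group medians, the grey line and band are the median and middle 50% of all kept genes, and dashed lines are the 2-fold limits. Ndufs4 at 1.28 is the 1 member past the limit, and complexes II to V have medians above that of complex I (0.03).

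Complex II, succinate dehydrogenase, is encoded by nuclear genes alone. Sdha, the flavin-binding subunit, was at 43.44 FPKM in SIRPα-KO and 33.95 FPKM in WT. Sdhc, a membrane anchor, was at 43.26 FPKM in SIRPα-KO and 33.54 FPKM in WT. The log2 ratios of these subunits were 0.35 and 0.36, while those of the iron-sulfur subunit Sdhb and the anchor Sdhd were lower. Sdhb was at 32.56 FPKM in SIRPα-KO and 34.84 FPKM in WT, and Sdhd was at 32.05 FPKM in SIRPα-KO and 28.69 FPKM in WT. The sum of the 4 was 151 FPKM in SIRPα-KO and 131 FPKM in WT.

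Complex III, the cytochrome bc1 complex, varied least among the complexes, with log2 ratios between -0.06 and 0.29. Of its 8 subunits 7 had a ratio above 0, and 5 did with the other scalings. Uqcrb, which lies near the ubiquinone site, was at 126.96 FPKM in SIRPα-KO and 111.51 FPKM in WT. Uqcrh, the hinge subunit, was at 120.94 FPKM in SIRPα-KO and 108.95 FPKM in WT. Both stood well above the other 6 subunits, which lay between 25.99 and 38.13 FPKM in SIRPα-KO and between 25.49 and 39.73 FPKM in WT. Uqcr11 had the highest ratio, with 32.26 FPKM in SIRPα-KO and 26.22 FPKM in WT. The lowest were Uqcrq, with 38.13 FPKM in SIRPα-KO and 39.73 FPKM in WT, and Uqcr10, with 25.99 and 25.49 FPKM. The catalytic iron-sulfur protein Uqcrfs1 was at 34.57 FPKM in SIRPα-KO and 33.09 FPKM in WT.

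Complex IV, cytochrome c oxidase, had the highest median subunit level of the 5 complexes, 83.5 FPKM in SIRPα-KO and 69.7 FPKM in WT. Its 12 commonly expressed subunits had a median log2 ratio of 0.21, with 9 of 12 above 0. Cox5a, which binds the heme-bearing core, was at 118.08 FPKM in SIRPα-KO and 78.10 FPKM in WT. Its fold of 1.51 had a 95% counting interval of 1.36 to 1.69, and its log2 ratio of 0.59 was just past the 1.5-fold limit. With either of the other scalings this ratio was 0.52, within that limit. Cox5b, the zinc-binding subunit, was at 125.75 FPKM in SIRPα-KO and 130.24 FPKM in WT. The Cox5 pair was therefore close to equal in SIRPα-KO, while in WT Cox5b exceeded Cox5a.

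Cox4i1, a regulatory subunit and the most abundant of the complex, was at 161.01 FPKM in SIRPα-KO and 141.55 FPKM in WT. Cox6b1 was at 142.43 FPKM in SIRPα-KO and 133.57 FPKM in WT, Cox6a1 at 136.18 and 110.74 FPKM, and Cox8a at 120.12 and 96.80 FPKM. All 4 had ratios above 0, between 0.09 and 0.31. Cox7a2 was at 62.37 FPKM in SIRPα-KO and 66.05 FPKM in WT, and the X-linked Cox7b was at 50.12 FPKM in SIRPα-KO and 48.41 FPKM in WT. Cox7a2l, a gene known from work on supercomplexes of complexes III and IV, had the lowest ratio of the common subunits. It was at 58.06 FPKM in SIRPα-KO and 69.65 FPKM in WT, and its function in these cells was not examined. Cox7c was at 101.21 FPKM in SIRPα-KO and 73.63 FPKM in WT, but 53.0% of its 50-base words occur in another gene, and with the pseudogene Gm10012 the sum was 224 FPKM in SIRPα-KO and 184 FPKM in WT.

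The tissue-restricted paralogues of complex IV were scarce in both libraries. Cox6a2, the heart and muscle paralogue of Cox6a1, was at 1.38 FPKM in SIRPα-KO and 1.5 FPKM in WT, and Cox7a1, the heart and muscle paralogue of Cox7a2, was at 1.49 and 1.22 FPKM. Cox6b2, the testis paralogue, was at 0.19 FPKM in SIRPα-KO and 1.15 FPKM in WT, which is about 1 and 7 reads. The counting interval of that fold ran from 0.0032 to 1.13 and so included 1. The common paralogue gave at least 97.7% of each Cox4i, Cox6a, Cox6b and Cox7a sum in SIRPα-KO and at least 98.2% in WT.

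Ndufa4, a subunit of complex IV, was at 83.52 FPKM in SIRPα-KO and 60.55 FPKM in WT, a log2 ratio of 0.46. AA467197, which carries the RefSeq synonym Nmes1, is no member and was singled out after its values were seen, because its deposited KEGG orthology number is that of Ndufa4. In inflamed cells its protein is known to replace Ndufa4 in complex IV. The level of AA467197 was 131.88 FPKM in SIRPα-KO and 1315.41 FPKM in WT, 9.97-fold lower, the 11th lowest ratio of the kept genes. AA467197 lies on chromosome 2, as does the targeted gene Sirpa, and a link between this and the difference was not tested. Ndufa4 made up 38.8% of the sum of the pair in SIRPα-KO and 4.4% in WT. Ndufa4 itself lay within 1.5-fold, while AA467197 was far past 2-fold. Of the 5 rows outside the members that carry an orthology number of a subunit, the other 4 were Gm10012, Mrpl43 (9.22 FPKM in SIRPα-KO and 13.48 FPKM in WT), 4930481A15Rik (2.09 and 2.31 FPKM) and Gm11602 (1.94 and 2.03 FPKM), none of them called.

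**Figure D3:**
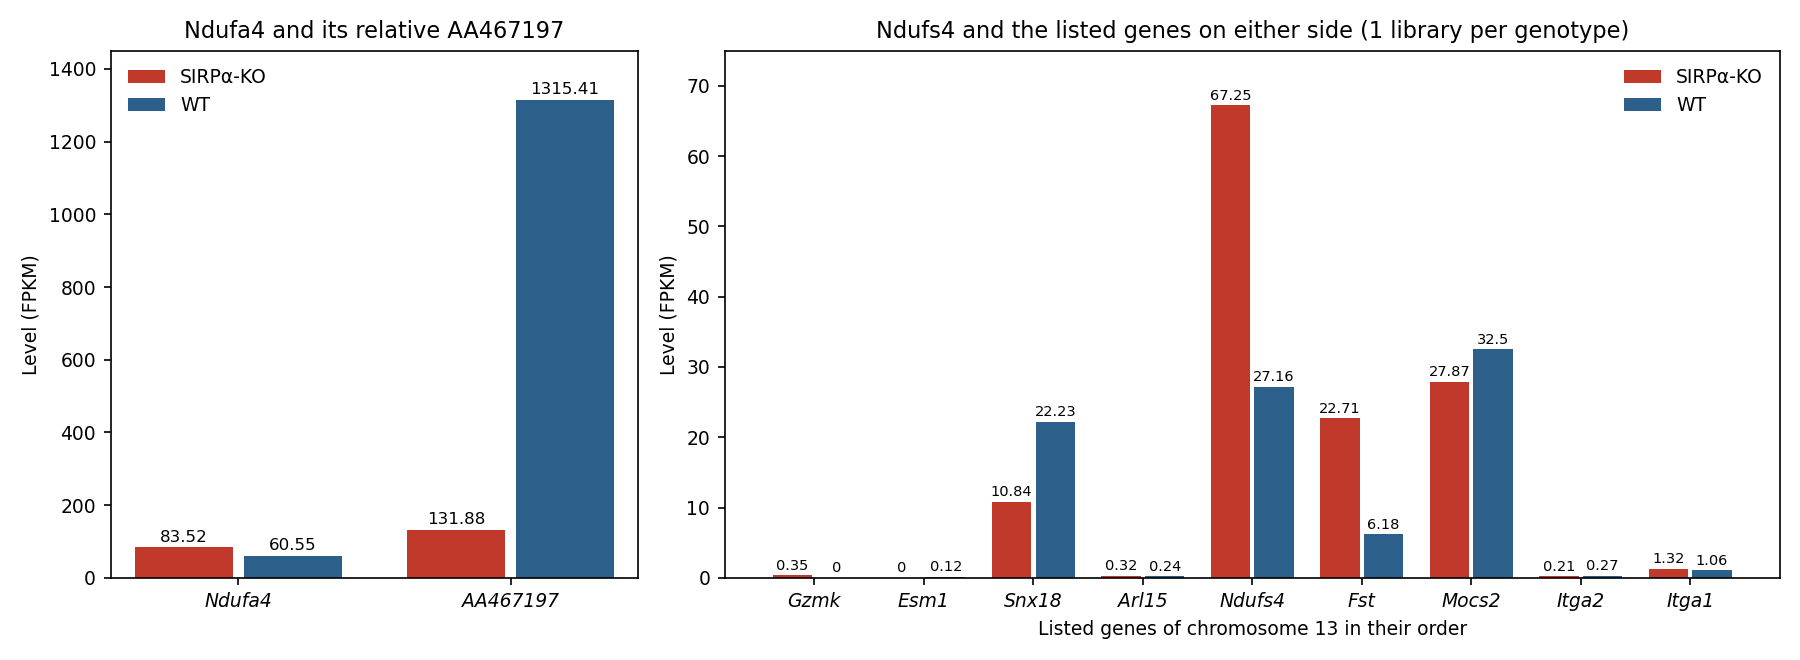
Levels (FPKM) in the SIRPα-KO library and the WT library of Ndufa4 and AA467197, and of Ndufs4 and its neighbours. AA467197 was at 131.88 FPKM in SIRPα-KO and 1315.41 FPKM in WT, and Ndufs4 and Fst were higher in SIRPα-KO while Mocs2 and Snx18 were lower.

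Complex V, ATP synthase, had 11 of 15 ratios above 0, and its sum was 1165 FPKM in SIRPα-KO and 1029 FPKM in WT. In the catalytic F1 part, Atp5b, the β subunit, was the most abundant member, at 205.13 FPKM in SIRPα-KO and 162.71 FPKM in WT. Atp5a1, the α subunit, was at 153.86 FPKM in SIRPα-KO and 109.67 FPKM in WT, with a counting interval of 1.34 to 1.47 for its 1.40-fold difference. The subunits of the central stalk did not share this: Atp5c1 (γ) was at 55.58 FPKM in SIRPα-KO and 59.85 FPKM in WT, Atp5d (δ) at 37.10 and 43.32 FPKM, and Atp5e (ε) at 57.69 and 56.36 FPKM. The F1 median was accordingly 0.03, and -0.04 or -0.03 with the other scalings, although the 2 subunits that form the catalytic hexamer were both above 0.

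The c ring, which turns as protons pass, is encoded by 3 genes for the same mature peptide. Atp5g1 was at 23.96 FPKM in SIRPα-KO and 19.35 FPKM in WT, Atp5g2 at 45.83 and 41.60 FPKM, and Atp5g3 at 76.79 and 65.20 FPKM. The order was the same in both libraries, and Atp5g3 made up 52.4% of the sum in SIRPα-KO and 51.7% in WT. Of the words of Atp5g2, 87.4% occur in another annotated gene, so its level depends on how shared reads were assigned.

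Among the 7 members of the peripheral stalk and membrane part, 5 had ratios above 0. Atp5o, which attaches the stalk to F1, was at 76.09 FPKM in SIRPα-KO and 60.16 FPKM in WT. Atp5l was the most abundant of the group with 93.55 FPKM in SIRPα-KO and 86.66 FPKM in WT, followed by Atp5h with 89.33 and 78.59 FPKM. Of the 50-base words of Atp5l 68.5% occur in another annotated gene, and of those of Atp5h 50.5%, so these levels depend on how shared reads were assigned. Atp5k, the e subunit, known for its part in dimers of the enzyme, had the lowest ratio of the complex at -0.47, with 35.91 FPKM in SIRPα-KO and 50.26 FPKM in WT. Its counting interval for the fold was 0.574 to 0.888. Atp5j2 was at 69.92 FPKM in SIRPα-KO and 70.09 FPKM in WT.

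The assembly factors of complex I among the members were low, with 1.10 to 3.99 FPKM in SIRPα-KO and 0.68 to 3.56 FPKM in WT for the 5 kept. Ndufaf1 was at 3.99 FPKM in SIRPα-KO and 2.96 FPKM in WT, and Ndufaf3 was at 2.34 and 3.56 FPKM. Their ratios lay on both sides of 0, with a median of 0.08. Assembly factors of all complexes outside the symbol rule had a higher median, 0.28, with 22 of 31 kept above 0 and 0 called in either direction. Among all kept genes the median was 0.06, with 56.1% above 0, 3.43% called higher and 4.3% called lower. Cox17, the copper carrier of complex IV and the most abundant, was at 133.67 FPKM in SIRPα-KO and 93.72 FPKM in WT. Coa5, also of complex IV, was at 110.87 FPKM in SIRPα-KO and 70.29 FPKM in WT.

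Genes that work with the respiratory chain were read by the same counts, beside 3.43% of all kept genes called higher, 4.3% called lower and 56.1% above 0. Their medians stand beside 0.06 for all kept genes. Of 5 further chain genes (Cyc1, Cycs, Atpif1, Usmg5 and 2010107E04Rik) 0 were called and the median was 0.27. Cycs, the soluble electron carrier cytochrome c, was at 97.34 FPKM in SIRPα-KO and 80.69 FPKM in WT, and Usmg5, of ATP synthase, was the most abundant with 112.48 and 85.58 FPKM. Of 14 kept regulators of mitochondrial biogenesis 0 were called, the median was 0.27, 11 were above 0 and 3 below 0. Yy1, the most abundant, was at 21.76 FPKM in SIRPα-KO and 18.20 FPKM in WT. Pprc1, a coactivator with the highest ratio, was at 9.15 FPKM in SIRPα-KO and 4.27 FPKM in WT. Polg, with the lowest ratio, was at 4.55 FPKM in SIRPα-KO and 7.04 FPKM in WT, and Nrf1 was at 5.60 and 6.61 FPKM. Of 22 kept import genes 0 were called and 19 were above 0, with a median of 0.27. Tomm70a, an import receptor and the most abundant, was at 110.74 FPKM in SIRPα-KO and 73.60 FPKM in WT.

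The ribosome of the mitochondrion makes the mitochondrially encoded subunits. Of its 76 genes 2 were called higher and 0 lower, beside 3.43% and 4.3% of all kept genes, and the median was 0.08, beside 0.06. The 2 genes called higher were Mrps18b (12.01 FPKM in SIRPα-KO and 4.72 FPKM in WT) and Mrps6 (10.58 and 4.47 FPKM). Genes whose symbols match those of the cytosolic ribosome had a median of -0.08, with 29 of 92 above 0, beside 56.1% of all kept genes. Of the 92, 0 were called higher and 1 was called lower, Rps19-ps3, a pseudogene at 0.37 FPKM in SIRPα-KO and 1.88 FPKM in WT. The 92 include 9 genes that encode no ribosomal protein (S6 kinases and Rps19bp1), and without them 25 of 83 were above 0 with a median of -0.07, a count added after the values were seen. The most abundant of them, Rps24, was at 780.86 FPKM in SIRPα-KO and 634.52 FPKM in WT. The medians of all these lists had the same sign under both other scalings.

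The members share short transcripts, with a median of 786 bases against 2886 bases for all kept genes. In the shortest of 10 equal groups of genes by length, which holds 55 kept members, the median log2 ratio was 0.07 for the members and 0.01 for the other genes. In the next group, with 11 members, it was -0.06 for the members and -0.01 for the other genes. The median of all genes was 0.01 in the shortest group and 0.12 in the longest. Of all members, 22 share more than 10% of their 50-base words with another annotated gene and 50 share none. Over the 62 kept members that are not above that limit the median log2 ratio was 0.08, beside 0.11 for all kept members. Among the 22 above it are Uqcrb (43.2%), Ndufb4 (37.0%), Ndufs3 (35.8%), Atp5o (35.5%) and Cox5b (25.9%). Their levels also depend on how shared reads were assigned.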

How the data were processed

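RNA of 1 SIRPα-KO and 1 WT library, each from the mixed cells of 5 mice, was sequenced with BGI protocols, per the labels' protocols. The authors deposited 1 table per library with a gene number, a symbol, annotation and 1 value per gene. The deposited values were taken as FPKM, a unit inferred from the steps between low values, since the tables name none. The submitters' processing notes name mm9, R 3.3.3 and DESeq2, with no role given. The sources used here do not name the aligner or the counter, or say whether strand was used (not given in the sources used here). Because FPKM is scaled by library total, very abundant genes can move the rest, and the level of a gene with a near-identical copy rests on the assignment of shared reads.

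Genes with at least 1 FPKM in at least 1 library were kept, a pseudocount of 1 was added, and the limit for a call was 2-fold on that scale. With 1 library per genotype no test was made. Low values lay within 0.15 of a whole read for 72.5% of 1040 genes in SIRPα-KO and 73.9% of 1048 genes in WT, too few for a count test. Read numbers are therefore approximate, and the 95% intervals (exact Clopper-Pearson) cover counting error only. They were computed with the longest matched transcript of each gene. Where shorter transcripts were expressed, read numbers can be too high and the intervals too narrow. Names, lengths and promoters came from RefSeq (GRCm38.p6, 16211 gene numbers matched) and GENCODE release 21 transcripts (15929 genes with a length); no coordinates were taken from the tables.

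Members and lists were chosen with earlier results of these data known. Named members are the 3 most abundant and the 2 highest and 2 lowest in ratio of each complex. Called members, X-linked members, members with paralogues, and called or most abundant genes of related lists are also named. Other members and other genes of related lists were named after their values were seen. Values of 1 member are not reported here. Alternatives were another pseudocount, filter, fold limit and scaling. Computation used Python 3.11.15, numpy 2.4.6, pandas 2.3.3 and scipy 1.17.1, and was tested on simulated data.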

Additional observations from a re-analysis of the deposited data

How the results depend on the processing

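The number of members higher in SIRPα-KO was 2 at the 1.5-fold limit, against 1 at 2-fold, and the number lower was 1 at the 1.5-fold limit and 1 with a pseudocount of 0.1, against 0. The member lower with the smaller pseudocount was Cox6b2, at about 1 and 7 reads, whose log2 ratio was then -2.11, and that of Cox4i2, listed at 0 in WT, was 1.202. The median log2 ratio of complex I was -0.040 with median-of-ratios scaling and -0.037 with trimmed-mean scaling, against 0.03. The log2 ratio of its summed level was -0.014 with trimmed-mean scaling and -0.013 without Ndufs4, an alternative chosen after seeing the data, against 0.05. The scalings lower the SIRPα-KO values by 0.07 (log2), and ratios of low members move by less because of the pseudocount. No paired analysis was possible because each genotype has 1 library, and for the same reason no library could be left out. Short members with few reads are limited by depth: the counting interval was wide for Ndufs8 (1.06 to 1.84) and included 1 for Cox6b2.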
